A study of Mus musculus with 31 samples.

Results

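The Bcl2 family decides whether the outer mitochondrial membrane stays closed, and 10 of its genes were followed here in Ba/F3 cells that express human RPL10 carrying the arginine-to-serine change R98S or human RPL10 WT. The genes were chosen by symbol as 3 survival members, Bcl2, Bcl2l1 and Mcl1, and 7 death members, Bax, Bak1, Bcl2l11, Bbc3, Pmaip1, Bad and Bid. All 10 were present in both tables, each of which lists 41255 genes. Ba/F3 is an IL-3 dependent mouse lymphoid cell line. All groups shared a retroviral human RPL10 cDNA and an shRNA against the endogenous Rpl10, so WT is the same construct without the change and not an untouched cell. Clones were grown from single cells and kept for strong knockdown, which left 3 R98S clones (11, 13 and 35) and 3 WT clones (28, 29 and 36), each bearing a replicate number from 1 to 3 per culture. Total mRNA was sequenced in 9 R98S and 8 WT libraries, and polysomal RNA, pooled from the sucrose gradient where transcripts carried 2 or more ribosomes, in 8 R98S and 6 WT libraries. The labels do not say how cultures of a clone were separated, so p-values measure the spread between these libraries, and each genotype rests on 3 clones. A WT library of total mRNA from clone 36 with number 1, which the study set aside because it grouped with R98S, was not analysed here, so the total mRNA comparison is conditional on that choice.

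Survival members bind and restrain the pore-forming effectors Bax and Bak1. The BH3-only members Bcl2l11 (Bim), Bbc3 (Puma), Pmaip1 (Noxa), Bad and Bid oppose them, either by occupying the survival proteins or by activating the effectors. In cells that live on IL-3, the cytokine is known to sustain Bcl2l1 and Mcl1 through Jak-Stat and other signals, and its withdrawal is known to raise Bcl2l11 and Bbc3. Many members are also regulated after transcription, by splicing, phosphorylation or protein turnover, which gene-level read counts do not show.

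Between 8831180 and 22059792 reads were assigned per library. Cell identity was checked with marker lists. The 3 IL-3 receptor genes summed to 104846 to 217687 normalized counts in R98S total mRNA and 52035 to 92520.5 in WT, and both beta subunit genes, Csf2rb and Csf2rb2, rose in R98S total mRNA (log2 fold changes 1.20 and 1.20, adjusted p 1.8e-05 and 1.6e-05 by limma). Among B lymphoid markers, Cd79a was present at 942.8 ± 188 normalized counts (SD) in R98S and 841.1 ± 69.5 in WT, Cd79b rose (log2 change 0.87, adjusted p 0.00667 by limma) and Ptprc fell (-0.48, adjusted p 0.0646 by limma) in total mRNA. Pax5 was at 0 in every total mRNA library, and Ebf1, Vpreb1 and Igll1 had mean values under 10. Of 4 mast cell and basophil markers, 2 of the 3 that passed the filter rose in total mRNA, where 14.5% of all genes were called higher, with a summed level of 214.8 to 3778 in R98S and 52.4 to 355.1 in WT, while Fcer1a was near 0. Of 4 myeloid markers, 1 of the 2 tested fell, where 15.8% of all genes were called lower, with sums of 2.76 to 408.6 and 29.8 to 209.1, and the T cell list summed to 36.5 to 101.9 in R98S and 13.4 to 210.8 in WT. Within that list Cd3d rose (log2 change 1.85, adjusted p 0.000221 by limma) and Cd3g fell (-3.06, adjusted p 0.00887 by limma). The part of these markers in the results on Bcl2 family genes was not tested. In bulk RNA, fewer cells with a transcript and less of it per cell cannot be told apart.

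The windows around a start site of 3 members on which the results turn are shown. Gene-level counts sum over all start sites, and for Bcl2l1, which has 3 windows in the reference, the one nearest the annotated start of the gene is printed. They come from RefSeq on GRCm38.p6, run from 250 bases before to 50 bases after a start site, and are written 5′ to 3′ on the strand of the gene. Capitals mark matches, on either strand, to the Stat motif TTCNNNGAA, the E-box CACGTG or the forkhead motif GTAAACA. The Bax window is chr7:45466849-45467148 (minus strand), the Mcl1 window chr3:95658471-95658770 (plus strand) and the Bcl2l1 window chr2:152831679-152831978 (minus strand).
Bax: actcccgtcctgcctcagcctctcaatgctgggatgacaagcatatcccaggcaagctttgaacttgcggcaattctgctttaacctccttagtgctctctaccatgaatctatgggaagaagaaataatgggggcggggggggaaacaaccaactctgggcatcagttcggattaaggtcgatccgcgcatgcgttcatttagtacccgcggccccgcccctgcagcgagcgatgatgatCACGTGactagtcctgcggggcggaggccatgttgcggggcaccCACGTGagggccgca
Mcl1: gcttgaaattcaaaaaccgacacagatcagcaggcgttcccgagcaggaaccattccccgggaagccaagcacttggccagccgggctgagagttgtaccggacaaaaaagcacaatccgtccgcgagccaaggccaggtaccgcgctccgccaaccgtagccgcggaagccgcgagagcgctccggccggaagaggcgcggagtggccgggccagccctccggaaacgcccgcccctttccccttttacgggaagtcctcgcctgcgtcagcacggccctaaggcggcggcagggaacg
Bcl2l1: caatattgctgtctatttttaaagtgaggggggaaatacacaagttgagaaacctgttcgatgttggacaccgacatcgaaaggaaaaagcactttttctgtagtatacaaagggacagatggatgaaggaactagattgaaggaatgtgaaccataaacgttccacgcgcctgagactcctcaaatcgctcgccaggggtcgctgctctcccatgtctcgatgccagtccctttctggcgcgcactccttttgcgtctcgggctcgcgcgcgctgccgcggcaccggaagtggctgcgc

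The Bax window holds 2 E-boxes, which start at positions -9 and 36 from the start site, and Bbc3 has 1 at -64 in one of its 3 windows. An E-box occurs in 7.15% of the 32851 windows in the reference. The forkhead motif, present in 3.65% of windows, was found in a window of Bcl2l11 at -227 and in a window of Bbc3 at -167. The Stat motif, present in 8.30% of windows, was not found in the windows of the 9 members examined. These matches describe letters within 300 bases and say nothing of binding.

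To see which members carry most mRNA, levels were set per kb of exon (normalized count divided by the length of all annotated exons). In WT total mRNA Mcl1 was highest at 1285 ± 151 per kb (SD, n = 8), followed by Bax at 967.9 ± 288 and Bid at 767.5 ± 137. Bak1 (720.8), Bcl2 (499.6), Bbc3 (354.0), Bcl2l1 (330.7), Bad (181.9) and Bcl2l11 (129.8) came next. In R98S total mRNA Bax led with 1249 ± 225 per kb (SD, n = 9), Mcl1 followed with 982.2 ± 143, and Bid moved behind Bak1. Every pair of neighbours in either order had overlapping ranges, except that the lowest Bcl2l11 library lay far above Pmaip1. In polysomal RNA Mcl1 was first in WT (1302 per kb), ahead of Bak1 and Bax, and Bax was first in R98S (1354 per kb), ahead of Mcl1, with overlapping ranges between these neighbours. In both genotypes the lowest Bbc3 library lay above all Bcl2l11 libraries in polysomal RNA, and in R98S Bid also lay apart from Bak1 above it and Bcl2 below it.

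Pmaip1, whose product Noxa binds Mcl1, was barely detected. It had reads in 4 of 17 total mRNA libraries, all WT, with at most 2 reads in a library, and in 4 of 14 polysomal libraries with at most 1 read. Since both genotypes were under a floor of 3 reads per library, which corresponds to 2.07 to 5.14 normalized counts in total mRNA, no fold change is given and the gene was below the filter of the tests.

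The comparison of total mRNA asked whether transcript levels of the family differ between R98S and WT. Mcl1, Bcl2l1 and Bid were lower and Bax was higher in R98S, so that 2 of the 3 survival members fell while the 7 death members split into 1 that rose, 1 that fell, 4 without a call and Pmaip1, which was under the filter. In all, 4 of the 9 members tested passed a limma adjusted p of 0.1, against 30.3% of the 11133 genes tested. By direction, 1 of 9 was higher and 3 of 9 were lower, against 14.5% and 15.8% of all genes, and over 9 genes nothing is drawn from the gap. Without the libraries of number 3 none of the 4 was called (limma adjusted p 0.303 for Bcl2l1, 0.190 for Mcl1, 0.110 for Bid and 0.244 for Bax), and all 4 kept their direction. In that fit 12% of all genes were called (1338 of 11133). With the replicate number as a block 4 members were called again, against 38.4% of genes. The means of the 3 clones did not overlap between genotypes for 4 of 9 members (Bcl2l1, Mcl1, Bbc3 and Bid, all lower in R98S), against 40.1% of all genes.

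**Figure D1:**
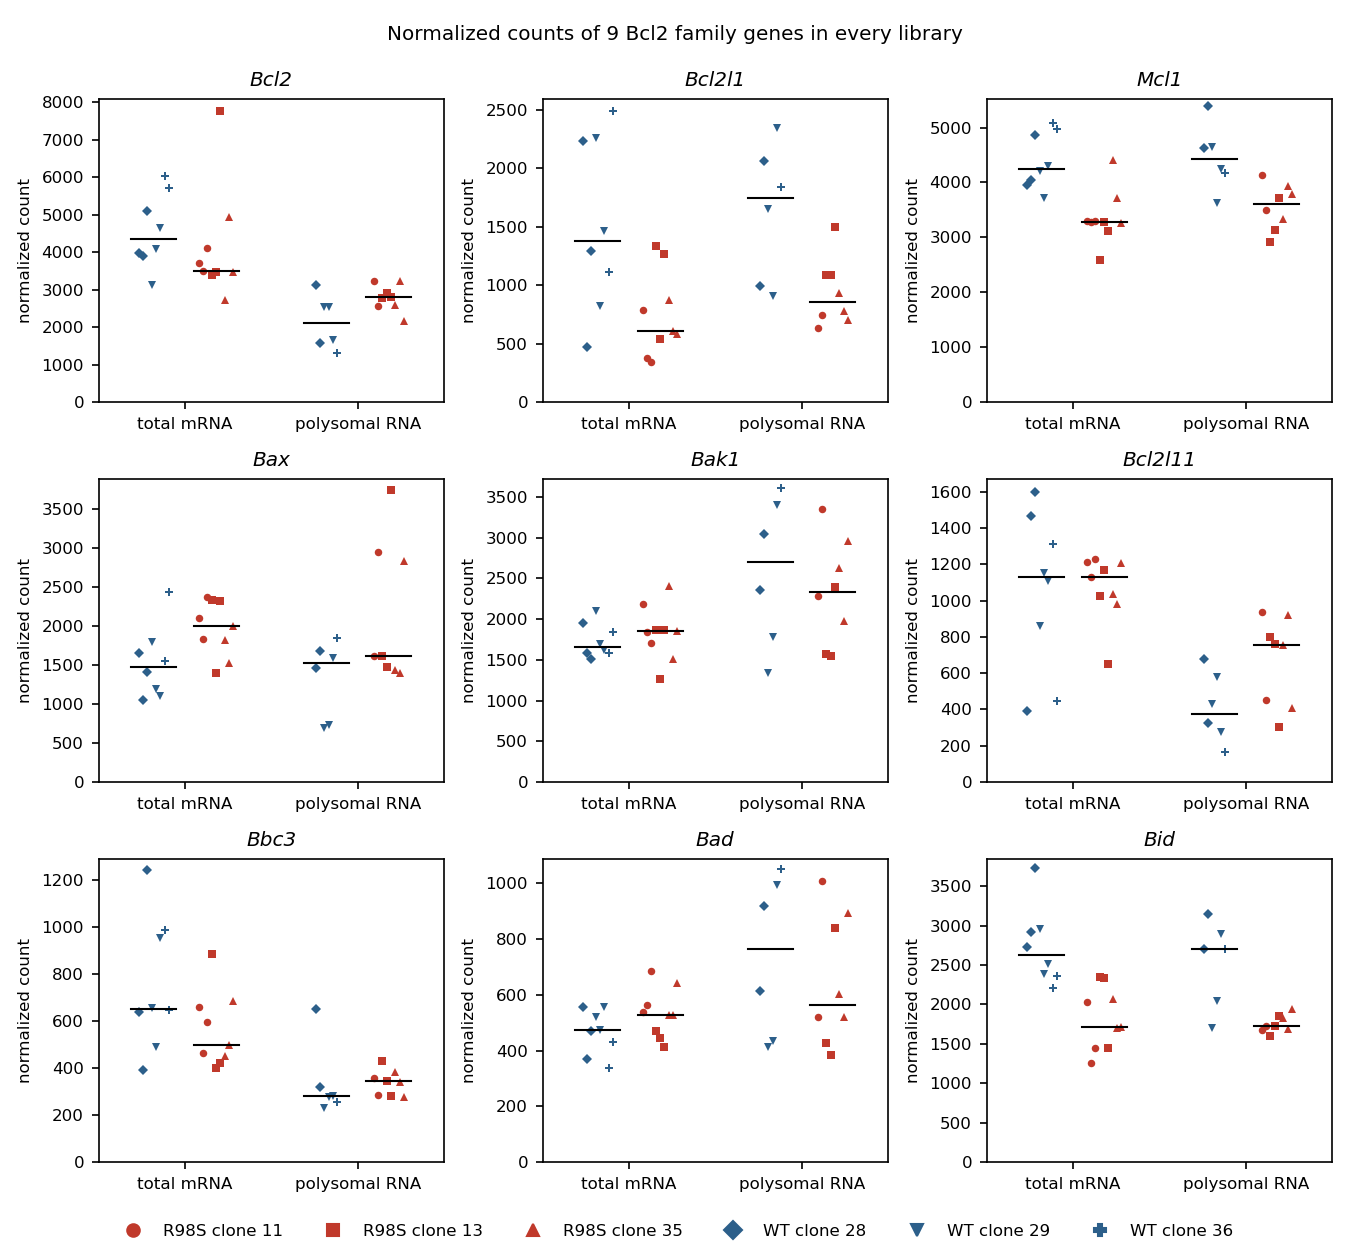
Normalized counts (y axes, linear from 0) of 9 Bcl2 family genes in each total mRNA and polysomal library, with 1 point per library, marker shape for the clone, red for R98S, blue for WT and a bar at the group median. In total mRNA 8 of the 9 R98S libraries lie below all WT libraries for Mcl1 and 7 of 9 for Bid, whereas Bcl2l1 and Bax overlap.

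Mcl1 (chr3:95658788-95663176, plus strand, mm10), a short-lived survival protein that many blood cells need, had the tightest difference of the survival members. R98S total mRNA libraries held 2587, 3285 and 4402 normalized counts (lowest, median and highest) and WT libraries 3710, 4250.1 and 5085. Of the R98S libraries, 8 of 9 lay below every WT library, clone 35 of number 1 reached into the WT range, and clone 35 of number 2 was level with the lowest WT library at 3709. R98S differed from WT by -0.39 on the log2 scale (SE 0.10, adjusted p 0.00674 by limma). Clone means were 3288, 2994 and 3789.6 in R98S clones 11, 13 and 35 and 4288, 4070.2 and 5032 in WT clones 28, 29 and 36.

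Bcl2l1 (chr2:152780668-152831728, minus strand), which encodes the survival protein Bcl-xL and a death-promoting splice form that gene counts do not separate, had the largest fold change of the members tested in total mRNA but also the largest standard error. Its normalized counts were 345.9, 608.3 and 1338 in R98S and 469.7, 1378 and 2488 in WT (lowest, median and highest). Only 2 R98S libraries lay below all WT libraries and 4 WT libraries lay above all R98S libraries. The fitted difference on the log2 scale was -0.98 (SE 0.33, adjusted p 0.0379 by limma), and with the replicate block -1.06 (SE 0.24, adjusted p 0.00345 by limma). Levels also varied within a clone, from 469.7 in WT clone 28 of number 2 to 2229.9 in the same clone of number 1. Number 2 was the lowest of the WT libraries in each clone, and within number 2 alone the log2 fold change was -0.60 (adjusted p 0.310 by limma), against -1.21 (adjusted p 0.0198 by limma) in number 1 and -1.40 (adjusted p 0.130 by limma) in number 3. Without R98S clone 11 the adjusted p was 0.202, and without WT clone 29 it was 0.1004.

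Bcl2 itself (chr1:106538178-106714274, minus strand), the founding survival member, did not pass the test. R98S libraries held 2712, 3494 and 7777 normalized counts and WT libraries 3136, 4360 and 6022 (log2 change -0.19, SE 0.17, adjusted p 0.471 by limma). The highest value came from R98S clone 13 of number 3, and the next R98S library had 4943.

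Bax (chr7:45461697-45466898, minus strand), the effector that moves from the cytosol into the mitochondrial membrane, rose by a small margin. R98S libraries held 1392, 2002 and 2371 normalized counts and WT libraries 1051, 1479 and 2435. The groups overlapped, since the highest library of all was WT clone 36 of number 3 and 3 WT libraries lay below all R98S libraries. On the log2 scale R98S minus WT was 0.40 (SE 0.16, adjusted p 0.0749 by limma), or 0.38 with the replicate block (adjusted p 0.0363 by limma). The unblocked call was lost on leaving out any of 9 libraries, namely R98S clone 11 of numbers 1 and 3, clone 13 of numbers 1 and 3, clone 35 of number 3, and WT clones 28 and 29 of numbers 2 and 3, with adjusted p values of 0.103 to 0.146, and the log2 fold change stayed between 0.33 and 0.39. Leaving out R98S clone 11 or 13 or WT clone 28 or 29 as a whole also lost it (adjusted p 0.254, 0.125, 0.254 and 0.232 by limma). The call held without R98S clone 35 or WT clone 36. Bak1 (chr17:27019810-27029009, minus strand), the effector that resides in the membrane, had 1265, 1857 and 2403 normalized counts in R98S and 1505, 1654 and 2104 in WT, with a log2 change of 0.07 (SE 0.11, adjusted p 0.712 by limma).

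Among the BH3-only members, Bid (chr6:120891930-120916853, minus strand), which links death receptors and caspase 8 to mitochondria, was the one that changed. R98S libraries held 1257, 1709 and 2349 normalized counts and WT libraries 2210, 2624 and 3726. In 7 of 9 R98S libraries the level was below every WT library. R98S differed from WT by -0.60 on the log2 scale (SE 0.13, adjusted p 0.0037 by limma), with clone means of 1577, 2042 and 1826 in R98S clones 11, 13 and 35 and 3127, 2617 and 2283 in WT clones 28, 29 and 36. Of its exonic bases 17.7% overlap Bcl2l13 on the opposite strand. Bcl2l13 was also lower in R98S total mRNA, by a log2 change of -0.23 (SE 0.08, adjusted p 0.0537 by limma), and whether reads of the pair were told apart by strand is not stated.

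The other BH3-only members did not pass the test in total mRNA. Bcl2l11 (chr2:128126038-128162547, plus strand), the main death signal on loss of cytokine, had 652.3, 1129.55 and 1229 normalized counts in R98S and 392.9, 1131 and 1600 in WT (log2 change 0.17, adjusted p 0.667 by limma). Its WT spread was wide, as WT clone 28 of number 1 and WT clone 36 of number 3 lay far below the other WT libraries. Bbc3 (chr7:16308393-16318205, plus strand), a p53 target, had 398.8, 497.8 and 884.9 in R98S and 392.6, 652.6 and 1242 in WT (log2 change -0.37, SE 0.21, adjusted p 0.212 by limma). Tested on clone means in place of libraries Bbc3 was called lower (log2 change -0.39, adjusted p 0.0369 by limma), and on leaving out WT clone 28 of number 2 as well (-0.49, adjusted p 0.0834 by limma). On clone means Bax was not called (log2 change 0.35, adjusted p 0.142 by limma). In that fit 0 members were higher and 4 lower, where 13.2% and 14.9% of all genes were called. Bad (chr19:6941861-6951899, plus strand), which is held inactive by survival kinases, had 414.1, 529.1 and 684.8 in R98S and 339.3, 473.6 and 557.9 in WT (log2 change 0.21, SE 0.12, adjusted p 0.248 by limma). Of 43 alternatives run, 1 called Bad higher (adjusted p 0.0782 by limma).

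**Figure D2:**
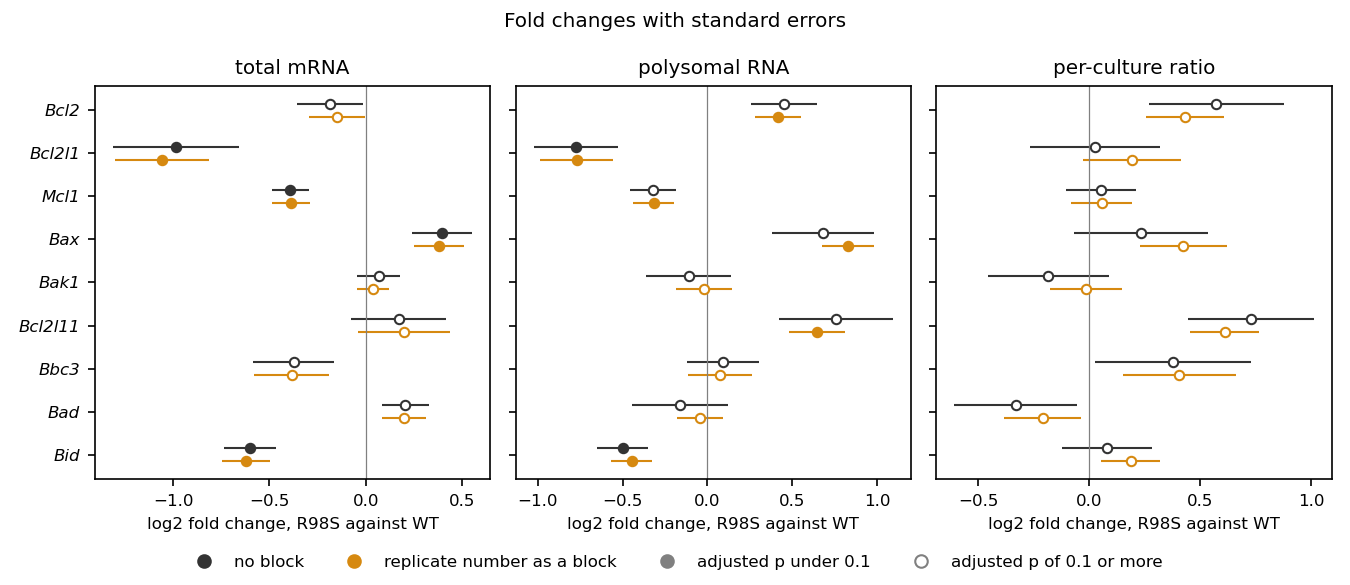
Log2 fold changes of R98S against WT (x axes, points with standard errors) for 9 members in total mRNA, polysomal RNA and the per-culture ratio, without (dark) and with (orange) the replicate number as a block. Filled points passed an adjusted p of 0.1, which 4 members did in total mRNA, 2 or 6 in polysomal RNA and 0 in the ratio.

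In polysomal RNA Bcl2l1 and Bid were again lower in R98S. Once libraries were compared within replicate numbers, Mcl1 was also lower, and Bcl2, Bax and Bcl2l11 were higher. Without a block 2 of 9 members were called, Bcl2l1 and Bid, against 13.5% of the 10707 genes tested. None of the 9 was called higher, where 7.66% of genes were, and 2 were called lower, where 5.87% were. After quantile normalization the calls were Bax, higher (adjusted p 0.0638 by limma), and Bid, lower (adjusted p 0.0942 by limma), and Bcl2l1 was not called (adjusted p 0.102 by limma). In that fit 6.97% of all genes were called higher and 6.17% lower. Without number 3 the calls were Bax and Bcl2l11, both higher (adjusted p 0.0574 and 0.0525 by limma), where 9.52% of genes were called higher. On leaving out number 2, Bcl2 was called higher and Bcl2l1 lower, where 6% and 4.34% of genes were called. Without WT clone 28 of number 2, Bcl2 and Bcl2l11 were called higher (adjusted p 0.0593 and 0.0961 by limma) beside the lower Bcl2l1 and Bid. In that fit 8.47% of all genes were called higher and 7.07% lower. Without R98S clone 13 of number 3 Bcl2l11 was called higher (adjusted p 0.0874 by limma), where 8.72% of all genes were. With the replicate number as a block 6 members were called, against 30.9% of genes. Bcl2, Bax and Bcl2l11 were called higher and Bcl2l1, Mcl1 and Bid lower, 3 of 9 in each direction, where 15.2% of genes were higher and 15.7% lower. The same 6 members had an unadjusted p under 0.05 in the limma fit without the block, as did 2326 of the 10707 genes tested. Clone means did not overlap for 5 of 9 members, against 27.2% of genes, and for WT clone 36 that mean is a single library.

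Bcl2l1 had 636.3, 854.3 and 1494 normalized counts in R98S polysomal libraries and 910.5, 1743 and 2341 in WT (lowest, median and highest). In 4 of 8 R98S libraries the value was below all WT libraries. The fitted difference on the log2 scale was -0.77 (SE 0.25, adjusted p 0.0644 by limma), and -0.77 with the block (adjusted p 0.0159 by limma). The call without the block was lost on leaving out any of 8 libraries, which were R98S clone 11 of numbers 1 and 3, clone 35 of numbers 2 and 3, WT clone 28 of number 3, WT clone 29 of numbers 1 and 3, and WT clone 36, with adjusted p values of 0.104 to 0.150. Without the libraries of number 3 the difference was -0.37 (adjusted p 0.355 by limma). Within number 2 the difference was -0.05 (adjusted p 0.965 by limma), and within number 3 it was -1.17 (adjusted p 0.0291 by limma).

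Bid had 1598, 1723 and 1939 normalized counts in R98S polysomal libraries and 1698, 2699.85 and 3143 in WT. The R98S libraries were narrowly grouped and 5 of 6 WT libraries lay above all of them, with WT clone 29 of number 1 as the exception. On the log2 scale R98S minus WT was -0.50 (SE 0.15, adjusted p 0.0468 by limma), and -0.45 with the block (adjusted p 0.0134 by limma). Leaving out WT clone 28 or WT clone 29 of number 3 gave an adjusted p of 0.123 and 0.102, leaving out any whole number gave 0.116 to 0.247, and clone means in place of libraries gave 0.160. In this fraction Bcl2l13 had a log2 change of -0.12 (adjusted p 0.875 by limma).

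Mcl1 had 2917, 3599.6 and 4139 normalized counts in R98S polysomal libraries and 3629, 4434 and 5386 in WT, and 5 of 6 WT libraries were above all R98S libraries. R98S differed from WT by -0.32 on the log2 scale (SE 0.14, adjusted p 0.174 by limma), and with the block it was -0.32 (SE 0.12, adjusted p 0.0663 by limma).

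Bax had 1396, 1618 and 3735 normalized counts in R98S polysomal libraries and 690.6, 1522 and 1843 in WT. The group ranges overlapped, but within number 3 all 3 R98S libraries (2838 to 3735) were above the 3 WT libraries (1588 to 1843), and within number 1 the 3 R98S libraries were above the WT library at 690.6. Within number 2 the groups overlapped, with 1396 and 1471 in R98S and 731.9 and 1457 in WT (log2 change 0.47, adjusted p 0.629 by limma). The fitted difference on the log2 scale was 0.68 (SE 0.30, adjusted p 0.193 by limma) without and 0.83 (SE 0.15, adjusted p 0.00106 by limma) with the block. A stretch of 12.2% of its exonic bases is shared with the gene model Gm45808 on the same strand, and 8.51% of its 50-base windows occur there.

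Bcl2l11 had 305.6, 757.0 and 939.4 normalized counts in R98S polysomal libraries and 163.9, 375.1 and 676.9 in WT, and 5 of 8 R98S libraries were above all WT libraries. Its log2 fold change was 0.76 (SE 0.33, adjusted p 0.195 by limma), and 0.65 (SE 0.16, adjusted p 0.00932 by limma) with the block. Bcl2 had 2160.0, 2799 and 3242 in R98S and 1313, 2101 and 3125 in WT, with a log2 change of 0.45 (SE 0.20, adjusted p 0.188 by limma) and 0.41 (SE 0.13, adjusted p 0.0328 by limma) with the block. For Bcl2 the difference stood in number 3 (0.73, adjusted p 0.0214 by limma), while in number 2 it was 0.12 (adjusted p 0.901 by limma).

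Bak1, Bbc3 and Bad did not pass the test in polysomal RNA with or without the block. Bak1 had 1546, 2336 and 3349 normalized counts in R98S and 1343, 2701 and 3608 in WT (log2 change -0.11, adjusted p 0.870 by limma), Bad had 383.4, 562.3 and 1008 against 412.7, 766.4 and 1054 (-0.16, adjusted p 0.823 by limma), and Bbc3 had 275.1, 343.9 and 431.9 against 230.2, 279.5 and 650.9 (0.09, adjusted p 0.877 by limma). Exonic overlap with opposite-strand genes reaches 18.2% for Bak1 (Ggnbp1) and 20.5% for Bad (Gpr137), and both partners were higher in R98S polysomal RNA (log2 fold changes 0.89 and 0.76, adjusted p 0.0412 and 0.0238 by limma).

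The polysomal levels of several members moved with the replicate number in both genotypes. Bax averaged 3175 normalized counts in the R98S libraries of number 3 and 1509 in those of numbers 1 and 2, a ratio of 2.10, and the ratio in WT was 1.77. Bad gave ratios of 1.86 in R98S and 2.04 in WT. Bcl2l11 was lower in number 3, with ratios of 0.464 and 0.453, and its ranges in number 3 and in the other numbers did not overlap in either genotype. Bcl2 averaged 1511 in WT number 3 and 2739.5 in the other WT numbers (ratio 0.552), while in R98S the ratio was 0.852 with overlapping ranges. In total mRNA the ranges of number 3 overlapped those of the other numbers for all 9 members in both genotypes. Number 3 holds 3 of 6 WT and 3 of 8 R98S polysomal libraries, so it weighs more in WT, and number 1 holds a single WT library. What the number stands for is not given in the labels, and its part in the differences without the block was not tested beyond the blocked and within-number values.

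**Figure D3:**
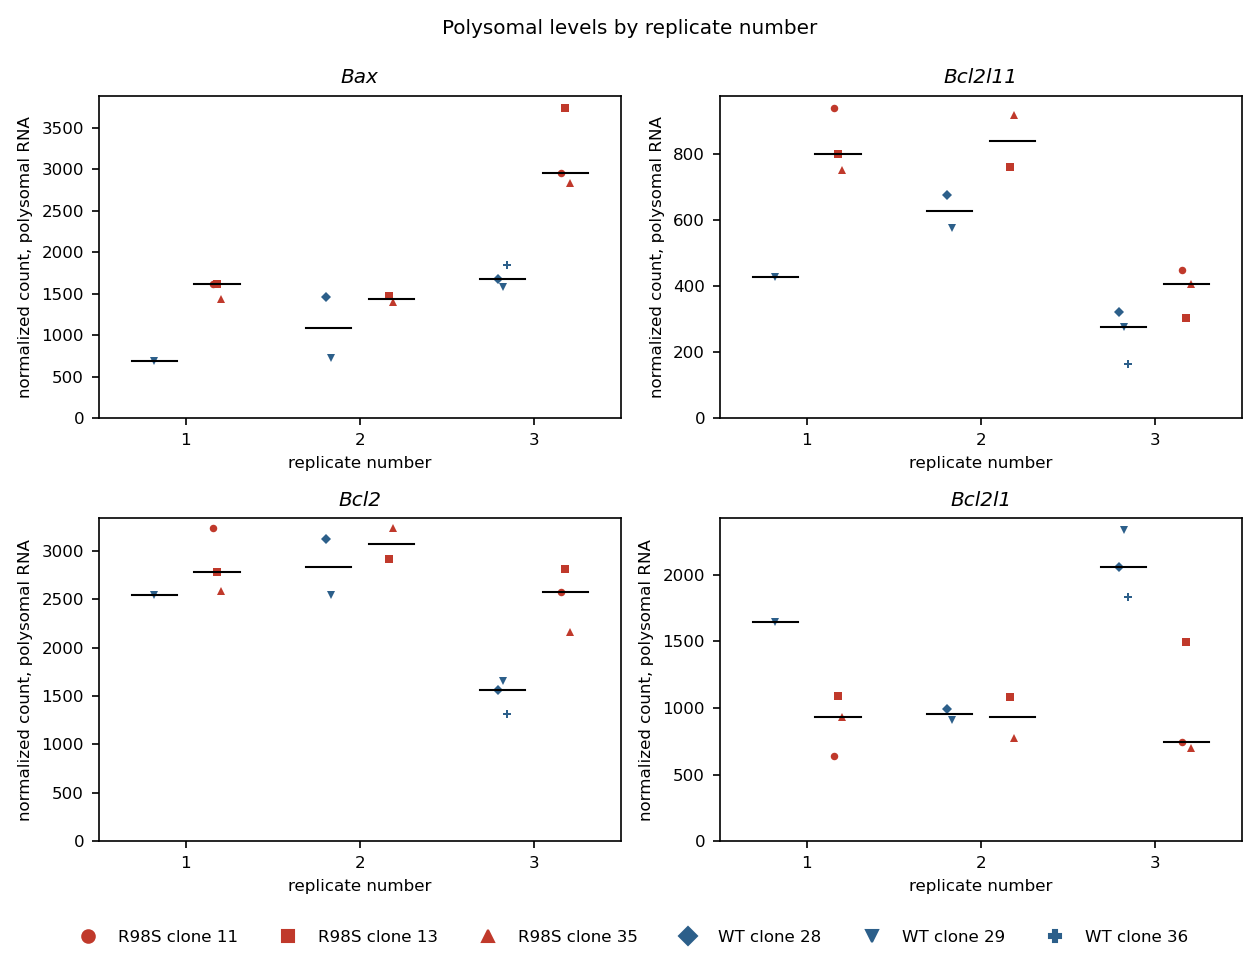
Polysomal normalized counts (y axes, linear from 0) of Bax, Bcl2l11, Bcl2 and Bcl2l1 by replicate number (x axes), with WT (blue) left and R98S (red) right at each number, marker shape for the clone and a bar at the median. Bax is higher and Bcl2l11 lower in number 3 than in numbers 1 and 2 in both genotypes, and the R98S libraries of Bax lie above WT within numbers 1 and 3.

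The per-culture ratio, the log2 polysomal minus log2 total value of the same culture, asked whether the share of a transcript found on polysomes differed between genotypes. No member was called among 10627 genes tested, with limma and with or without the block. In this comparison 0.0376% of genes were called without and 0.47% with the block, so hardly any gene was called in this comparison, members included. An unadjusted limma p under 0.05 was reached by 1 of 9 members (Bcl2l11) without the block, and by 633 of the 10627 genes. With the block it was reached by 3 members (Bcl2, Bax and Bcl2l11) and by 1313 of all genes. On recovered reads edgeR and DESeq2 also called 0 members. Each had Bcl2l11 as the only member at an unadjusted p under 0.05, where 615 and 766 of all genes were. The 2 tables were normalized separately, so a ratio is relative to the average gene.

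Over all cultures, with or without the block, Bcl2l11 had the largest difference in the ratio. R98S cultures had log2 ratios of -1.57, -0.54 and -0.09 (lowest, median and highest) and WT cultures -2.31, -1.27 and -0.99, and 5 of 8 R98S cultures were above all WT cultures. On the log2 scale R98S minus WT was 0.73 (SE 0.28, adjusted p 0.747 by limma) and 0.61 (SE 0.15, adjusted p 0.129 by limma) with the block. Bcl2 had ratios of -1.47, -0.45 and -0.07 in R98S and -2.12, -1.08 and -0.30 in WT, a difference of 0.57 (SE 0.31, adjusted p 0.843 by limma), or 0.43 with the block (adjusted p 0.344 by limma). These were the 2 members whose clone means did not overlap, against 17.1% of all genes. Fitted on clone means, the difference was larger for Bcl2 (0.80) than for Bcl2l11 (0.73). WT clone 36 enters the clone means with 1 culture, of number 3. Its Bcl2 ratio was -2.12, against means of -1.01 and -0.82 in WT clones 28 and 29. Within number 3 it was 0.83 for Bcl2, 0.70 for Bbc3 and 0.55 for Bcl2l11. The difference for Bax was 0.23 (SE 0.30) without and 0.43 (SE 0.20) with the block, and for Bbc3 0.38 (SE 0.35).

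Bcl2l1, Mcl1 and Bid, which were lower in R98S in both fractions (Mcl1 in polysomal RNA with the block or by DESeq2), had small differences in the ratio. The log2 difference was 0.03 (SE 0.29) for Bcl2l1, 0.05 (SE 0.16) for Mcl1 and 0.08 (SE 0.20) for Bid. With the block it was 0.19 (SE 0.22), 0.06 (SE 0.14) and 0.19 (SE 0.13), with none called. For Bad it was -0.33 (SE 0.28) and for Bak1 -0.18 (SE 0.27). The levels of the ratio depended on the number. In the 6 cultures of number 3 the log2 ratio averaged -1.64 for Bcl2l11 and -1.36 for Bcl2, against -0.63 and -0.34 in the 8 other cultures, whereas Bak1 averaged 0.84 against 0.08 and Bad 0.86 against 0.0030.

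**Figure D4:**
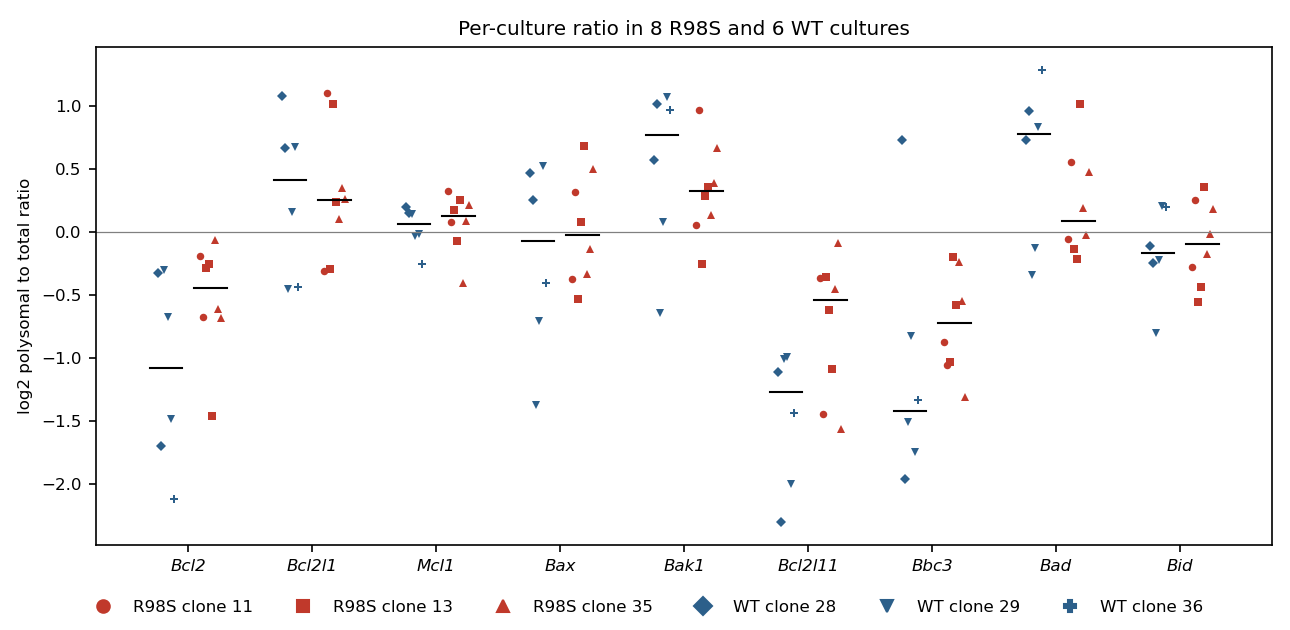
Log2 polysomal to total ratio (y axis) of 9 members in each culture, with WT (blue, n = 6) left and R98S (red, n = 8) right for each gene, marker shape for the clone and a bar at the median. The R98S and WT medians are -0.54 and -1.27 for Bcl2l11 and -0.45 and -1.08 for Bcl2, and the groups overlap for every member.

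The balance of the family was described per library as the mean log2 value of the 3 survival members minus that of the 6 death members above the filter, a score that received no test. In total mRNA it was 0.89 ± 0.37 (SD) over 9 R98S libraries and 1.39 ± 0.32 (SD) over 8 WT libraries, a difference of -0.50 on the log2 scale that exceeds either SD. In 7 of 9 R98S libraries the balance was below all WT libraries, and R98S clone 13 of number 3, at 1.72, was the highest of its group. Clone means were 0.63, 1.15 and 0.90 for R98S clones 11, 13 and 35 and 1.27, 1.29 and 1.73 for WT clones 28, 29 and 36, so they did not overlap. The survival mean differed by -0.52 and the death mean by -0.02, and among the death members Bax was higher while Bid was lower in R98S. Bcl2l1 carried much of the difference, which was -0.27 on leaving it out. Summed values in place of mean logs, which weigh abundant genes more, gave -0.27.

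In polysomal RNA the balance was 1.04 ± 0.23 (SD) over 8 R98S libraries and 1.39 ± 0.37 (SD) over 6 WT libraries, a difference of -0.34 that is smaller than the SD in WT. The survival mean differed by -0.22 and the death mean by 0.13. Clone means overlapped, with 0.87, 1.26 and 0.95 in R98S clones 11, 13 and 35 and 1.17, 1.61 and 1.16 in WT clones 28, 29 and 36. The highest value, 2.09, came from WT clone 29 of number 1, which was the only WT library of its number. Within number 1 the difference was -1.04 against that library, within number 2 it was -5.5e-05 and within number 3 it was -0.34, whereas in total mRNA it was -0.66, -0.29 and -0.58 within numbers 1, 2 and 3. Bcl2 and Bcl2l1 pulled in opposite directions, and the polysomal difference was -0.67 without Bcl2, -0.06 without Bcl2l1 and -0.20 without WT clone 29 of number 1.

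**Figure D5:**
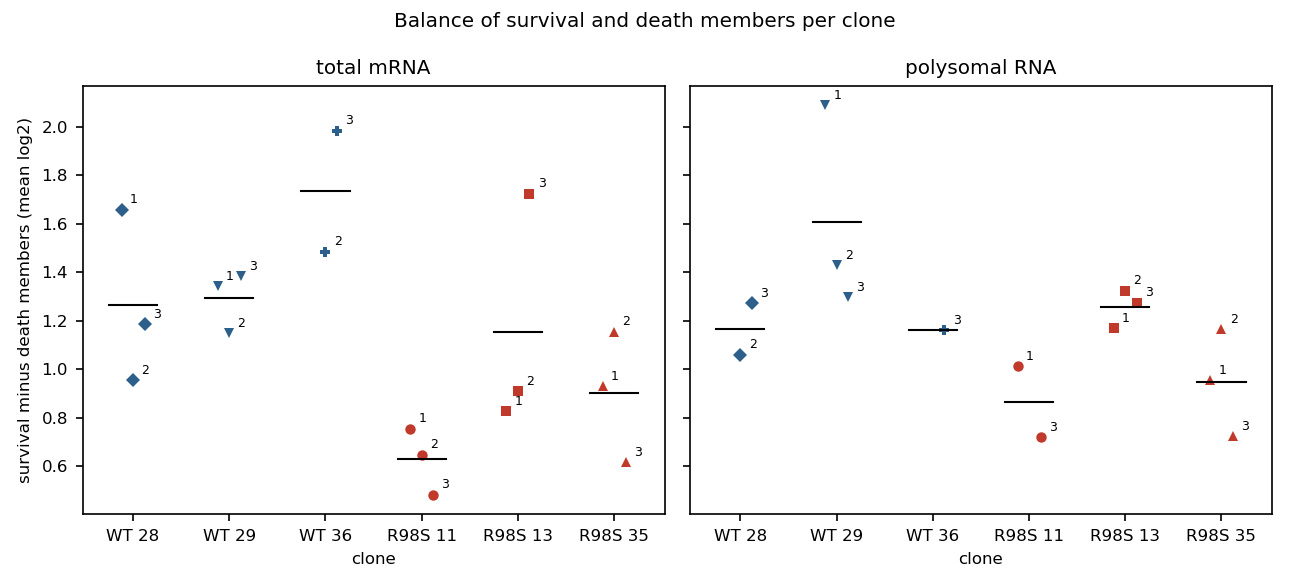
Balance of survival and death members (y axes, mean log2 of 3 survival minus mean log2 of 6 death members) per clone (x axes) in total mRNA and polysomal RNA, with 1 point per library labelled by its replicate number and a bar at the clone mean. The R98S clone means (0.63 to 1.15) lie below the WT clone means (1.27 to 1.73) in total mRNA, and they overlap in polysomal RNA.

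Further genes of the pathway were counted from lists of the family and of the steps around it. Of 5 other survival members, Bcl2l2 alone passed the filter, with total mRNA levels of 529.8 ± 87.4 normalized counts (SD) over 9 R98S libraries and 628.8 ± 177 over 8 WT libraries, and it was not called in any comparison. Of 12 other death and less defined members 8 were tested in total mRNA, with 1 higher and 2 lower in R98S, where 14.5% and 15.8% of all genes were called, and a median log2 change of -0.16, beside 0.0035 over all genes. Bcl2l14, a gene of low level with a debated role, rose from 100.1 ± 23.8 in WT to 192.1 ± 29.8 in R98S total mRNA (log2 change 0.96, adjusted p 0.000189 by limma) and from 88.3 ± 26.6 to 244.2 ± 57.4 in polysomal RNA (1.47, adjusted p 0.000409 by limma), while Bnip1 fell in total mRNA (-0.50, adjusted p 0.029 by limma). With the block, Bmf was also called lower in total mRNA (-0.83, adjusted p 0.0931 by limma), where 19.9% of all genes were called lower. In polysomal RNA with the block, 3 members of that list were higher and 1 lower, the additions being Bnip3l, Bnip3 and Bnip1, where 15.2% and 15.7% of all genes were called.

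Of 15 genes of mitochondrial release, the apoptosome and its inhibitors, 14 were tested in total mRNA, with 1 higher, 3 lower and a median log2 change of -0.16, and 30.3% of all genes were called. With the block 2 were higher and 6 lower, where 38.4% of genes were called, and the additions were Cycs, higher, and Htra2, Birc2 and Birc6, lower. Vdac3 and Vdac1, channels of the outer membrane, fell by 0.55 and 0.52 on the log2 scale (adjusted p 0.000748 and 0.00313 by limma), and Birc5 (survivin) fell by 0.43 (adjusted p 0.00522 by limma). In polysomal RNA 1 of the 14 was called, Vdac1, which fell by 0.56 (adjusted p 0.0289 by limma), and with the block 3 were lower, where 13.5% and 30.9% of all genes were called. Of 5 caspases, Casp2 fell and Casp8 rose in total mRNA (log2 fold changes -0.43 and 0.27, adjusted p 0.0168 and 0.0185 by limma), where 30.3% of all genes were called. In polysomal RNA none was called without the block, and with it Casp2 was lower and Casp6 higher (-0.45 and 0.45, adjusted p 0.0205 and 0.0381 by limma), where 30.9% of genes were called. Of 9 genes of the death receptor arm, which reaches mitochondria through Bid, 7 were tested. Tnfrsf1a and Fas fell and the adaptor Fadd rose in total mRNA (log2 fold changes -0.62, -0.47 and 0.65, adjusted p 0.00201, 0.0882 and 0.0119 by limma), and Tnfrsf1a and Fadd were also called in polysomal RNA (-0.63 and 0.51, adjusted p 0.0372 and 0.0719 by limma). These are 3 of 7 and 2 of 7 genes, where 30.3% and 13.5% of all genes were called, and with the block Tnfrsf10b was also called higher in polysomal RNA (0.43, adjusted p 0.0629 by limma). Of 4 genes that act on the turnover of Mcl1 or Bcl2l11 protein, the ubiquitin ligase gene Huwe1 fell and Btrc rose in total mRNA (-0.46 and 0.27, adjusted p 0.0132 and 0.097 by limma), where 30.3% of all genes were called. In polysomal RNA none of the 4 was called without the block and Btrc was called higher with it (0.40, adjusted p 0.0478 by limma), where 13.5% and 30.9% of all genes were called. No gene of these lists was called in the per-culture ratio.

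Finally, the genes whose total mRNA pattern was most like that of a called member were found over the 17 total mRNA libraries among the 9256 genes whose mean reached 100. These correlations span both genotypes and the same libraries, and they are descriptions. Bcl2l1 was nearest to Arrb2 and Relt (Pearson r 0.93 for each), Bax to Aen and Slc30a2 (0.90 for each), Mcl1 to Cd69 and Cenpa (0.90 and 0.87), and Bid to Use1 and Ddhd2 (0.91 and 0.90).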

How the data were processed

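Total mRNA and polysomal RNA of Ba/F3 clones were analysed from 2 tables with 17 and 14 libraries. According to the methods of the study, libraries came from a stranded kit, a base was trimmed from each read, rRNA and tRNA reads were removed with Bowtie2, and the rest were mapped to mm10 with TopHat2 2.0.11, the version in the submitters' processing notes. HTSeq stands in the same notes without a role. The annotation and the use of strand are not given in the sources used here. The unit deposited by the authors is a signal, namely reads on exons of a gene scaled by DESeq2 size factors, separately for each table. Dividing each library by its smallest value gave whole reads, within 0.01 of a read, for 100% of the values above 0.

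Groups, clones and replicate numbers came from the labels. Values were taken as log2(value + 1), genes whose mean was under 10 were left out, and the genotypes were compared by limma 3.58.1 with a variance trend in R 4.3.3. Fold changes are on that scale, tests are two-sided, and genes with a Benjamini-Hochberg adjusted p under 0.1 over all genes tested are called. For the ratio the trend used the mean of both fractions. The study used DESeq2, and Babel for translational efficiency, which was not used here. The limma fits without a block were run on simulated total mRNA and polysomal values. The simulated libraries were independent, with a common dispersion and no clone or replicate number effect. They therefore cannot show how the p-values behave where such effects are present. The blocked fits and the ratio were not simulated.

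Same-numbered libraries of the 2 genotypes deviated together (correlations of 0.62, 0.55 and 0.48 in order of number with total mRNA, 0.70, 0.67 and 0.87 with polysomal RNA, and 0.67, 0.54 and 0.81 with the ratio). In polysomal RNA, R98S number 1 with WT number 2 gave 0.77, and R98S number 2 with WT number 1 gave 0.74. There the correlations set number 3 apart but do not separate numbers 1 and 2. The numbers were taken to pair the libraries, and blocked values are printed where they matter. The members and gene lists were chosen with earlier results of these data known. The 9 members above the filter are named in each comparison, with up to 3 genes per wider list by adjusted p, and genes beyond these were chosen after their values were seen. Exon positions came from GENCODE M21, and promoters from RefSeq on GRCm38.p6. Alternatives covered pseudocounts (0.5 and 5), filters (none and a mean of 50), TMM and quantile scaling, edgeR 4.0.16 and DESeq2 1.42.0 on recovered reads, clone means, clone as a random block, single numbers, and leaving out each library, clone or number. An edgeR fit with the block and a blocked fit of the 14 matched cultures were added after seeing the data.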

Additional observations from a re-analysis of the deposited data

Results flagged for a closer look

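Values that stood apart within their group by Dixon's ratio were sought in 58 groups of member levels, ratios and balances, where chance gives about 2.9, and 5 were found. In total mRNA, R98S clone 13 of number 3 had 7777 normalized counts of Bcl2, while the next R98S library had 4943, and the same library had 652.3 of Bcl2l11, with the next at 979.6. Its culture also had the lowest R98S log2 polysomal to total ratio of Bcl2, -1.47, with the next at -0.68. In polysomal RNA, WT clone 28 of number 2 had 650.9 normalized counts of Bbc3, and the next WT library 318.2. The polysomal balance of WT clone 29 of number 1 was 2.09, and the next WT library had 1.43.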

How the results depend on the processing

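Without any block, the count of 4 members called in total mRNA became 1, 0 and 2 within numbers 1, 2 and 3 alone and 2 in the 14 libraries with a polysomal partner, where 12.3%, 2.16%, 9.40% and 21.6% of all genes were called. It ranged from 0 (without number 3, where 12% of all genes were called) to 4 on leaving out a library, clone or number. The count of 2 in polysomal RNA became 6 with the replicate block, 6 with edgeR and the replicate block, 1 on clone means, 0 within number 2 and 4 within number 3, where 30.9%, 30.7%, 7.01%, 3.00% and 20.9% of all genes were called. It ranged from 0 to 4 on leaving out a library, clone or number. The count was 4 without WT clone 28 of number 2, where 15.5% of all genes were called. It was 0 without WT clone 28 or WT clone 29 of number 3, where 10.6% and 12% were called. The count was also 0 without number 1, R98S clone 11 or R98S clone 35, where 5.68%, 9.03% and 7.68% were called. The limma, edgeR and DESeq2 fits of the per-culture ratio called 0 members under every alternative run. The replicate block changed no call of the 9 members in the ratio or in all 17 total mRNA libraries. In the 14 with a partner the block raised the count of members called from 2 to 4, where 26% of all genes were called. The polysomal balance of -0.34 became -0.67 on leaving out Bcl2.

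Bcl2l1, Mcl1, Bax and Bid kept their direction in total mRNA and in polysomal RNA under all alternatives run, whereas some members without a call in a comparison changed direction there. In total mRNA, Bad had a log2 fold change of -0.075 within number 1, Bak1 -0.092 and Bcl2l11 -0.26 within number 2, and Bak1 -0.0073 with the replicate block in the 14 matched libraries. In polysomal RNA, Bak1 had 0.046 after quantile normalization, and Bbc3 had -0.30 within number 2 and -0.018 within number 3. In the ratio within number 2, Bak1 had 0.016, Bbc3 -0.33, Bid -0.055 and Mcl1 -0.075. On leaving out a library, clone or number, total mRNA Bcl2l11 ranged from -0.081 to 0.43, polysomal Bad from -0.45 to 0.019, Bak1 from -0.39 to 0.14 and Bbc3 from -0.17 to 0.36. The ratio of Bak1 ranged from -0.53 to 0.12, Bax from -0.081 to 0.52, Bbc3 from -0.043 to 0.79, Bcl2l1 from -0.13 to 0.32, Bid from -0.047 to 0.16 and Mcl1 from -0.080 to 0.12. With no filter Bax lost its call in total mRNA (limma adjusted p 0.115), and Pmaip1, with reads under its floor, was called lower (limma adjusted p 0.0826). This left 0 members higher and 4 lower, where 7.41% and 7.17% of all genes were called. The cause was not tested. No number 1 polysomal fit was made, as it holds 1 WT library.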
